A study of Mus musculus with 10 samples.

Results

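Mast cells and basophils were examined among the CD45+ sorted cells of SW1 melanoma tumors, as barcodes picked by the transcripts of 4 granule protease genes. A droplet barcode was taken when 200 genes or more were detected in it, no more than 10% of its UMIs were mitochondrial and it held at least 3 UMIs of Cpa3, Cma1, Mcpt4 and Mcpt8 together, with at most 5 UMIs of the macrophage genes C1qa, C1qb and C1qc and 0 UMIs of the T cell genes Cd3e, Cd3d and Cd3g. A UMI (unique molecular identifier) stands for 1 captured RNA molecule. A taken barcode was called a basophil where its Mcpt8 UMIs exceeded those of Cma1 and Mcpt4, and a mast cell otherwise. The rule found 200 barcodes, 111 called mast cell and 89 called basophil, among 36440 that passed the gene and mitochondrial limits (kept barcodes) and 41936 deposited. Because these genes chose the barcodes, their levels within them are given as a description.

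SW1 is a mouse melanoma line that grows in C3H/HeJ mice. Per the labels, cells were injected under the skin of the right flank of female mice aged 4 to 6 weeks, and after 10 days the animals received control water or water with L-fucose (L-fuc), a dietary sugar, to drink freely. The study's methods give a longer time of tumor growth before treatment. The labels give the concentration as 100 mM in one place and 100 nM in another. There were 5 gene expression libraries, each made from pooled tumors: pretreatment day 0, which is labelled as control water, then control and L-fuc at day 7, and control and L-fuc at day 21, and the T cell receptors of the same 5 pools were also sequenced. With 1 library per condition there was no replicate, so no test between conditions was made, and all intervals below cover counting error only.

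The libraries differed in size and depth. In the order given above, they had 1660, 19298, 12265, 1981 and 1236 kept barcodes, with medians of 4571, 4922.5, 2959, 4176 and 2295 UMIs. These kept barcodes held 14377573, 116085791, 84686475, 20659030 and 16224997 UMIs. Ptprc, which encodes the CD45 protein used for the sort, had a UMI in 48.9%, 26.4%, 36.0%, 39.5% and 39.6% of the kept barcodes, and in 12 of 25 called barcodes of control day 7 and 89 of 165 of L-fuc day 7. Between libraries, 716 pairs of kept barcodes had the same sequence, and 7 of the 200 called barcodes were in such a pair, though never with a called barcode on both sides. None of the 200 had a T cell receptor contig, which allows a share of up to about 1.5% (3 of 200). Of the other kept barcodes of L-fuc day 7, 8.86% had one. The rule had already left out barcodes with Cd3 UMIs from the 200 and not from the others, so this contrast is partly set by the rule.

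Mast cells live in tissues, depend on the stem cell factor receptor Kit, and store proteases, histamine and heparin in granules that they release when antigen cross-links IgE on the receptor FceRI. In mice, connective tissue mast cells are known for the chymases Cma1 and Mcpt4 and the tryptases Tpsb2 and Tpsab1, and mucosal mast cells for the chymases Mcpt1 and Mcpt2. Basophils circulate in blood, also carry IgE on FceRI, and are known for the proteases Mcpt8 and Prss34 and for making Il4. Most of these proteases come from a cluster of related genes on chromosome 14 and another on chromosome 17.

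In the GENCODE vM21 annotation of GRCm38, the protein-coding genes Cma1 (chr14:55941451-55944675), Mcpt1, Mcpt9, Mcpt2, Mcpt4, Mcpt8 (chr14:56082166-56085273), Ctsg and Gzmb lie in this order, while Prss34, Tpsab1 and Tpsb2 lie on chromosome 17 and Cpa3 on chromosome 3. Cma1 and Mcpt8 are among the genes that the rule used, so their difference between called mast cells and basophils was set in advance. Mcpt1 lies between them and was not used by the rule. The start regions of Cma1, Mcpt1 and Mcpt8 each cover 250 bases before and 50 after the gene's start. They come from RefSeq on GRCm38.p6 at chr14:55944626-55944925 (minus strand), chr14:56017714-56018013 (plus strand) and chr14:56085148-56085447 (minus strand). Capitals mark GATAA or its reverse complement TTATC, the core letters bound by GATA factors such as Gata2, which mast cells and basophils both use.
Cma1: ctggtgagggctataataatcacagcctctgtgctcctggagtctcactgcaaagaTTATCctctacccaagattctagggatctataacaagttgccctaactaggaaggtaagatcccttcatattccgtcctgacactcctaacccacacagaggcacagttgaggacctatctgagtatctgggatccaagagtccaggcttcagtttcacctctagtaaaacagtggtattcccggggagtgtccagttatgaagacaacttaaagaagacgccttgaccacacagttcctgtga
Mcpt1: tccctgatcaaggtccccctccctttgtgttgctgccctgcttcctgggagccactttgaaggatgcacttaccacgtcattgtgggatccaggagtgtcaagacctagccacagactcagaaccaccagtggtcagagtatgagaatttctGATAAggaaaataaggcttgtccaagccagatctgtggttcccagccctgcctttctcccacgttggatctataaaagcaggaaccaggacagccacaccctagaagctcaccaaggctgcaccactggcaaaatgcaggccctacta
Mcpt8: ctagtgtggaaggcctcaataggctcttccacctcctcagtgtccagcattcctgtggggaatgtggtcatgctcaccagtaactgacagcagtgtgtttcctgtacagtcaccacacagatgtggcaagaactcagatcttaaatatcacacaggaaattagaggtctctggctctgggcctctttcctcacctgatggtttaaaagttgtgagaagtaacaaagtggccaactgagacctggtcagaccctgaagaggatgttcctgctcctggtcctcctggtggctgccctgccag
These letters occurred once in the windows of Cma1 and Mcpt1 and not in that of Mcpt8. They occurred in 25.4% of 32851 such windows of the genome, so a single match is common. Reads of these genes can be hard to assign, since the longest stretch of identical bases was 49 between transcripts of Mcpt1 and Mcpt2, 46 between those of Mcpt1 and Mcpt4, 42 between those of Mcpt1 and Mcpt9, 39 between those of Tpsb2 and Tpsab1 and 27 between those of Cma1 and Mcpt4.

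The label held for nearly all called basophils of L-fuc day 7 and for part of the called mast cells. Of 15 mast cell markers, the 12 outside the rule were set against 5 markers of natural killer (NK) cells, Gzma, Klrb1c, Ncr1, Nkg7 and Klrd1, a division made after the values had been seen. Of the 111 barcodes called mast cell, 57 had more UMIs of the mast cell markers, 46 had more of the NK markers and 8 had as many of both. The last 8 had 3 UMIs of the rule's genes each, 7 of them had no UMI of the 12 markers, and they are not described further. Below, the 57 are called mast-marker barcodes and the 46 Gzma-led barcodes, after their leading gene.

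The Gzma-led barcodes had almost no transcript of a mast cell other than Cma1. In L-fuc day 7 there were 40, and for 37 of them every UMI of the rule's genes was Cma1, between 3 and 11 UMIs per barcode. They held 162 Cma1, 2 Mcpt4 and 3 Cpa3 UMIs, and 10 of the 15 mast cell markers were at 0, among them Hdc, Gata2, Fcer1a, Ms4a2, Il1rl1 and Tpsb2. The NK markers summed to 4195 UMIs in these 40 barcodes (23505 CPM, counts per 1000000 UMIs of the group), led by Gzma, a granule protease of cytotoxic cells, with 3168. Against the mast-marker barcodes of the same library, Prf1, which encodes perforin, had 244 UMIs against 5, and Klra3, an NK receptor gene, had 97 against 1. In that comparison 5.94% of 5434 genes were at least 2-fold higher and 4.84% lower, and the marker lists that made the division are not evidence for it. The mast-marker barcodes showed the reverse, with 11481 UMIs of the mast cell markers, 14 of the 15 detected (Mrgprb2 was at 0) and 37 UMIs of the NK markers over 41 barcodes.

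**Figure D1:**
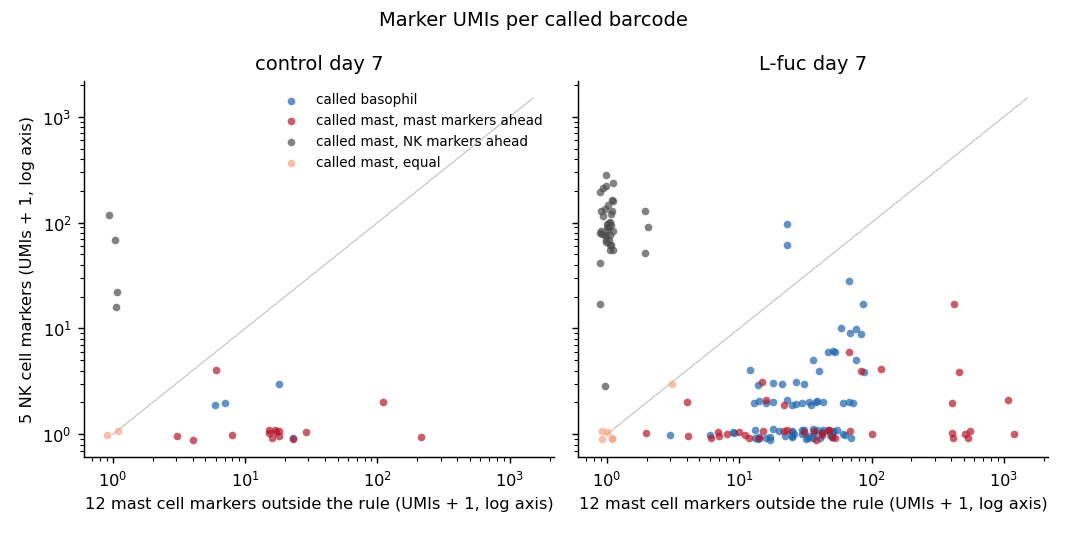
UMIs of the 12 mast cell markers outside the rule (horizontal axis) against UMIs of the 5 NK cell markers (vertical axis) in each called barcode of control day 7 and L-fuc day 7, with 1 added for the log axes, a small random shift so that points do not hide each other, and a grey line where both are equal. In L-fuc day 7 the 40 grey points of the Gzma-led barcodes stand at the left edge and the 41 red points of the mast-marker barcodes lie below the line.

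Cma1 was also found in barcodes with NK markers that the rule did not take. In L-fuc day 7, 379 kept barcodes within the C1q and Cd3 limits had at least 20 NK marker UMIs, and the rule did not take 338 of them. Of these 338, which can hold no more than 2 UMIs of the rule's genes, 32.8% had a Cma1 UMI (95% exact binomial interval 27.9 to 38.1, median 3480.5 UMIs per barcode) and 1.48% a Mcpt4 UMI. The shares for Cma1 were 5.21% of 1017 T cell barcodes (median 4116 UMIs), of which 2.75% had a Mcpt4 UMI, and 4.43% of 1062 macrophage barcodes (median 6422.5 UMIs). In control day 7, 22.1% of the 68 NK marker barcodes that the rule did not take had a Cma1 UMI (12.9 to 33.8), against 2.15% of 652 T cell barcodes. Free RNA from broken cells can reach every droplet. In the T cell barcodes of L-fuc day 7 and control day 7, Hbb-bs, a globin gene of red cells, had a UMI in 91.3% and 45.7%. The shares were 17.8% and 15.6% for Mcpt1, 5.60% and 4.45% for Tpsab1 and 2.26% and 1.69% for Cpa3, while Cma1, as given above, and Mcpt8, with 0.885% and 0.153%, lay further apart. Summed Mcpt1 was at 900.4 and 47.1 CPM there, and 5918 of its 6141 UMIs in L-fuc day 7 lay in 10 barcodes.

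The called basophils of L-fuc day 7 carried further basophil transcripts. Of 78, Hdc, which encodes the enzyme that makes histamine, was found in 77, the transcription factor gene Gata2 in 74 and Cd200r3, an activating receptor gene, in 71. The NK markers were ahead in 2 of the 78. In 1 other, 444 Mcpt2, 30 Mcpt1, 20 Cma1 and 4 Kit UMIs stood beside 31 Mcpt8 UMIs, with Hdc and Cd200r3 at 0, which goes against its call. The 6 called in control day 21 had 6 to 111 Mcpt8, 19 to 38 Hdc and 3 to 12 Cd200r3 UMIs each, and the single one in L-fuc day 21 had 12, 19 and 6. In control day 7, 1 of the 4 called basophils held 1369 Mcpt1, 706 Mcpt2 and 14 Kit UMIs beside 17 Mcpt8 UMIs, which also goes against its call.

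At the threshold of 3 UMIs the calls were thin. In L-fuc day 7, 32 barcodes stood at exactly 3 UMIs, 19 of them with the NK markers ahead and 7 with the mast cell markers ahead, of which 3 were mast-marker barcodes and 4 called basophils. A further 97 barcodes stood just outside at 2 UMIs, 58 with the NK markers ahead and 14 with the mast cell markers ahead. The C1q and Cd3 limits left out 135 of the 300 barcodes of this library that reached 3 UMIs, and 13 of 38 in control day 7. Mcpt8 together with Cma1 or Mcpt4 was found in 19 of the 165 called barcodes of L-fuc day 7, which had a median of 8236 UMIs, and in 2 of 25 in control day 7. Scrublet, a doublet caller, was set to mark a fixed share of each library. In L-fuc day 7 it marked 150 of 12265 kept barcodes (1.22%), among them 1 of 87 called mast cells and 5 of 78 called basophils. It marked no other called barcode.

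Both classes took a larger share of the kept barcodes in L-fuc day 7 than in control day 7. Called basophils were 78 of 12265 (0.636%, interval 0.503 to 0.793) against 4 of 19298 (0.0207%, 0.00565 to 0.0531), a ratio of shares of 30.7 (exact conditional interval 11.5 to 115). Called mast cells were 87 (0.709%, 0.569 to 0.874) against 21 (0.109%, 0.0674 to 0.166), a ratio of 6.52 (4.01 to 11.1). With the mast-marker barcodes alone the counts were 41 (0.334%, 0.240 to 0.453) and 15 (0.0777%, 0.0435 to 0.128), a ratio of 4.30 (2.33 to 8.36). Gzma-led barcodes were 40 against 4. Each of these values rests on 1 pool of tumors per condition, and treatment, pool and library cannot be told apart.

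At day 21 and before treatment few barcodes were found. Control day 21 held 6 called basophils of 1981 (0.303%, 0.111 to 0.658) and L-fuc day 21 held 1 of 1236 (0.0809%, 0.00205 to 0.450), a ratio of 0.267 whose interval (0.00581 to 2.20) includes 1. No mast cell was called in either library, and the exact intervals allow shares of up to 0.186% and 0.298%. Pretreatment day 0 held 3 called mast cells of 1660 (0.181%, 0.0373 to 0.527), of which 1 was a mast-marker barcode and 2 were Gzma-led. It held no called basophil, for which the exact interval allows up to 0.222%. By counting error alone, the basophil share in L-fuc day 7 was higher than the limit of pretreatment day 0. For called mast cells the intervals of 87 of 12265 and 3 of 1660 did not overlap. However, 40 of the 87 and 2 of the 3 were Gzma-led, and the intervals of the mast-marker barcodes, 41 of 12265 and 1 of 1660, overlapped. With 1 pool per library, these intervals do not cover differences between pools.

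**Figure D2:**
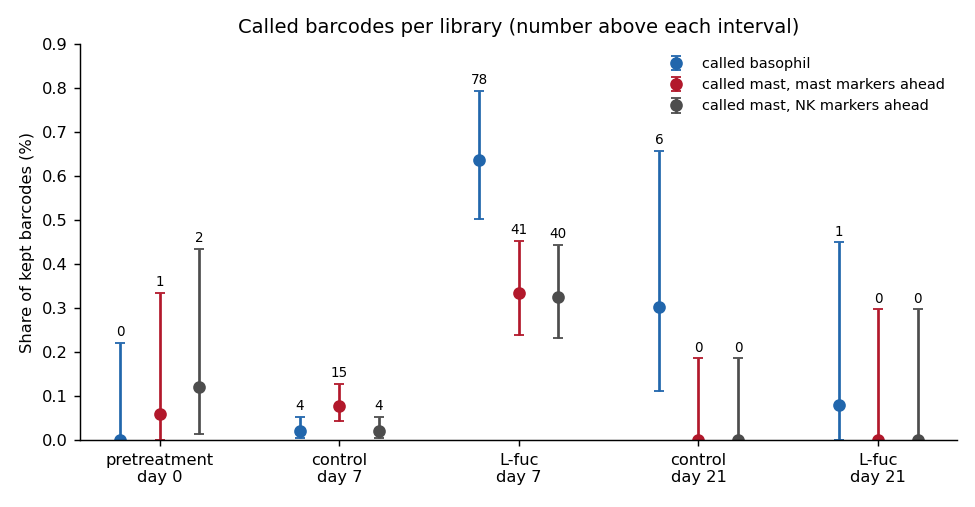
Share of kept barcodes (%) called basophil (blue), mast-marker (red) and Gzma-led (grey) in the 5 libraries, with exact binomial 95% intervals for counting error and the number of barcodes above each. Basophils reach 0.636% in L-fuc day 7 and 0.0207% in control day 7.

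The mast-marker barcodes differed among themselves in which proteases they held. Tpsb2, the tryptase of connective tissue mast cells, and the mucosal chymases Mcpt1 and Mcpt2 were counted in each of the 41 barcodes of L-fuc day 7, with thresholds chosen after the values had been seen. In 13 barcodes both kinds were present, with at least 10 Tpsb2 and at least 100 Mcpt1 and Mcpt2 UMIs, and their median depth was 8010 UMIs. In 4 barcodes Tpsb2 had at least 10 UMIs while Mcpt1 and Mcpt2 together had at most 1, with a median depth of 1113 UMIs. In 7 barcodes Mcpt1 and Mcpt2 had at least 100 UMIs and Tpsb2 was at 0, with a median depth of 25259 UMIs. The minimum of 100 UMIs favours deep barcodes, and all 11 barcodes with Tpsb2 at 0 had a median depth of 12933 UMIs.

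These 7 barcodes, chosen for their Mcpt1 and Mcpt2 counts, held 70.2% of the UMIs of these 2 genes in the mast-marker barcodes of this library. All 7 also had Mcpt8 UMIs, 194 in all, although Mcpt8 is the protease that the rule used for basophils. Over the 41 barcodes, Mcpt8 was found in 12, whose median depth was 14382 UMIs, and Prss34, Ccl6 and Ccl9, genes of the called basophils, were at 0. In control day 7 the same 3 combinations were found in 1, 2 and 3 of 15 barcodes, and Mcpt8 in none. The single mast-marker barcode of pretreatment day 0 held 101 Mcpt4, 79 Cma1 and 29 Tpsb2 UMIs with Mcpt1 and Mcpt2 at 0.

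**Figure D3:**
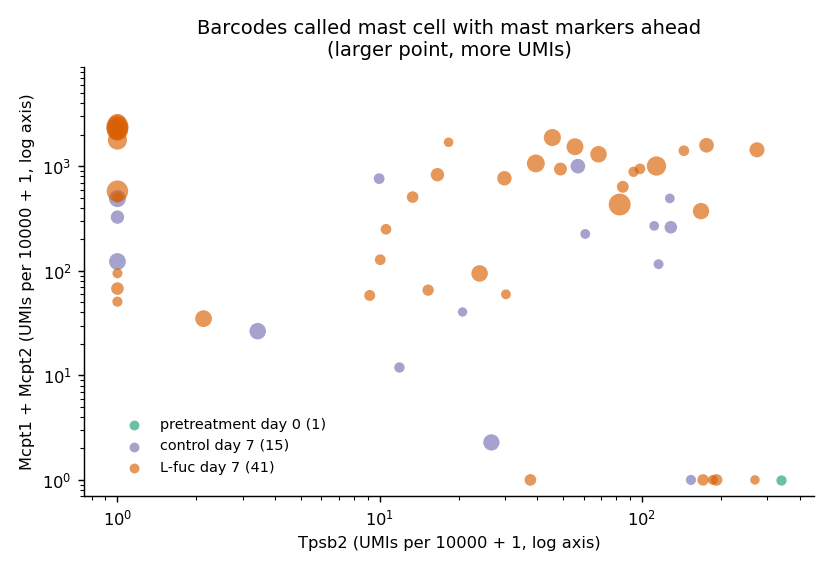
Tpsb2 (horizontal axis) against Mcpt1 and Mcpt2 together (vertical axis), both as UMIs per 10000 UMIs of the barcode with 1 added for the log axes, in the 57 mast-marker barcodes, with larger points for barcodes with more UMIs. The group at the upper left has Mcpt1 and Mcpt2 without Tpsb2, and the row at the bottom has Tpsb2 with almost none of them.

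To describe how the classes differed, the UMIs of the 41 mast-marker barcodes (295337) and the 78 called basophils (418415) of L-fuc day 7 were summed and scaled to CPM. Both classes come from the same library, and since 4 protease genes sorted them, the differences describe the classes and were not tested. The mast-marker class was also chosen by its 12 further markers, Tpsb2, Tpsab1, Kit, Mrgprb1, Mrgprb2, Cyp11a1, Slc45a3, Hdc, Ms4a2, Fcer1a, Gata2 and Il1rl1, so their levels in it are no finding. A gene counted as higher or lower when it differed at least 2-fold with at least 30 UMIs in both classes together. Of 6859 genes outside the rule with at least 10 UMIs, 4.78% were higher in mast-marker barcodes and 9.43% were lower, and the median log2 ratio was -0.08. Over all 87 called mast cells of this library, as the rule has them, 5.65% of 7943 genes were higher and 7.21% lower, with all 5 NK markers among the higher ones.

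Of the 10 granule protease genes outside the rule, 6 were higher in the mast-marker barcodes and 1 was lower (median log2 ratio 4.83). Tpsab1 and Tpsb2 count among the 6 but belong to the markers that chose the class, so their being higher is no finding. Mcpt1 had 23343 UMIs against 50 and was found in 36 of 41 against 16 of 78 barcodes, with 0, 66 and 4083 UMIs as the lowest, median and highest per mast-marker barcode. Mcpt2 had 16886 UMIs against 460, of which 444 lay in 1 called basophil. The levels of both chymases thus differed widely within the mast-marker class and were near 0 in nearly all called basophils. Tpsab1 had 4942 UMIs against 5, and Tpsb2 had 1175 against 0. Gzmb, a cytotoxic granule protease, had 659 UMIs against 256, a log2 ratio of 1.86. Prss34, the basophil tryptase, ran the other way with 0 against 1046 UMIs.

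Mediator genes were called in both directions. Of 5 measured genes for histamine and other amines, which mast cells and basophils store, 2 were higher and 1 was lower (median 1.05). Of 11 eicosanoid genes 1 was higher and 3 were lower. Without barcodes above 20000 UMIs, 1 amine gene was higher and 1 lower of 4 measured (median -0.87). Under that limit 0 eicosanoid genes were higher and 4 lower of 9. Hdc was lower in the mast-marker barcodes, with 134 UMIs in 20 of 41 against 1625 UMIs in 77 of 78 (log2 ratio -3.09). Tph1, which encodes the enzyme for the first step of serotonin synthesis, had 592 UMIs in 26 of 41 barcodes and 0 in the called basophils. In L-fuc day 7, Tph1 was thus found in the mast-marker class and not among the called basophils. Hdc was found in both, but it was among the markers that chose the mast-marker class. Hpgds, a prostaglandin synthase gene, had 36 UMIs against 0, whereas the cyclooxygenase gene Ptgs2 had 2 against 194 and the lipoxygenase gene Alox15 had 0 against 47. Alox5 and its partner Alox5ap, for leukotrienes, were in both, with 109 against 103 and 340 against 939 UMIs, neither of them a 2-fold difference.

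Of 11 measured genes of growth factor receptors 2 were higher and 5 lower, and of 15 activating and inhibitory receptors 1 was higher and 6 were lower. Of the receptor genes named here Kit, Il1rl1, Fcer1a and Ms4a2 were among the markers that chose the mast-marker class. Kit had 135 UMIs in 25 of 41 mast-marker barcodes against 5 UMIs in 2 of 78 called basophils (log2 ratio 5.01), and Il1rl1, the receptor gene for an alarmin, had 45 against 13 (2.22). Il3ra, a receptor gene for a growth factor of basophils, had 9 against 66 UMIs (-2.24), and Il18rap, a cytokine receptor gene, had 0 against 72. Of 19 genes of the IgE receptor and its signalling, 1 was higher and 8 were lower (median -0.46). The higher one was Fcer1a, the IgE-binding chain, with 223 against 125 UMIs (1.33), while the beta chain gene Ms4a2 had 65 against 128 (-0.46) and fell short of 2-fold. The inhibitory receptor gene Lilrb4a was lower, with 53 against 868 UMIs (-3.51), and Cd200r3 with 45 against 279 (-2.10).

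Cytokine and chemokine genes were the list with the largest number of members lower in the mast-marker barcodes, 12 of 21 measured, with 4 higher (median -2.59). As shares, some shorter lists had more lower members, such as basophil markers (10 of 12) and red cell genes (4 of 5). With each barcode weighing the same, immediate early genes also had 12 lower. Ccl3 had 42 UMIs in 8 of 41 barcodes against 4928 UMIs in 77 of 78, with 0, 39.5 and 296 UMIs as the lowest, median and highest per called basophil. Ccl6 and Ccl9 had 4099 and 964 UMIs in the called basophils, in 75 of 78 each, and 0 in the mast-marker barcodes. These 3 chemokine genes were found in nearly every called basophil. Il4 had 45 UMIs against 602 (-3.21) and Il6 had 23 against 447 (-3.72), with each found in fewer of the called basophils, 54 and 60 of 78. Osm (67 against 1066, -3.47) and Csf1 (15 against 531, -4.55) were lower as well. The 4 higher were Ccl1, Ccl2, Ccl7 and Il13, and of the 168 Ccl1 UMIs 136 lay in 1 barcode.

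Transcription factor genes split 4 higher and 6 lower of 20. Gata2, which was among the markers that chose the mast-marker class, was in both classes, with 115 against 379 UMIs (-1.21). The myeloid factor gene Cebpa was at 0 against 89. Runx3 had 49 against 7 UMIs (3.15). Of 21 adhesion and homing genes, 10 were lower, such as the integrin genes Itga2 (1 against 57 UMIs) and Itgam (1 against 129). The 3 higher were Itgae (77 against 2), Cd34 (53 against 2) and Cd24a (68 against 13). Immediate early genes, which respond quickly to stimuli and also to tissue dissociation, were lower for 11 of 23 and higher for 0 (median -1.09), with Egr1 at 60 against 751 UMIs.

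Among the remaining lists, 8 of 20 cell cycle genes were higher and 0 lower (median 1.11), and without barcodes above 20000 UMIs 2 of 11 measured were higher, where 5.17% of 5340 genes were higher and 10% lower. Mki67, a proliferation marker, had 48 UMIs in 5 of 41 barcodes against 15 UMIs in 5 of 78. Of 19 genes of hypoxia and glycolysis, 8 were lower and 0 higher (median -0.89), including the glucose transporter gene Slc2a3 with 2 against 54 UMIs. The fucose metabolism genes, for the enzymes that use or release the sugar given in the water, were barely detected, with 7 of 17 measured. Of these, Fuca2, a fucosidase gene, was higher (30 against 11 UMIs) and Fut8, the core fucosyltransferase gene, was lower (4 against 28). Without barcodes above 20000 UMIs, 0 of 6 measured fucose metabolism genes were higher and 0 lower. MHC class II genes were higher for 4 of 8 (median 0.90) and lower for H2-Oa alone, with Cd74 at 470 against 296 UMIs, and 151 of the 470 lay in 1 barcode. Red cell genes were lower for 4 of 5, with Hbb-bs at 199 against 3318 UMIs, of which 3028 lay in 4 called basophils. Its median per barcode was 2 in the mast-marker barcodes and 2.5 in the called basophils.

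Outside the lists, the genes with the lowest ratios included Pglyrp1 (1 against 436 UMIs), a peptidoglycan binding protein gene, Acod1 (1 against 414), the itaconate synthase gene, and Hgf (2 against 210), the hepatocyte growth factor gene. These were spread over the called basophils, in 69, 48 and 60 of 78. Among the highest, Gm20628 (65 against 1) and Hic1 (32 against 0) lay mainly in 1 barcode each, with 57 and 30 UMIs there. Scin, a gene for an actin-severing protein of secretory cells, had 102 against 5 UMIs and was found in 14 of 41 barcodes.

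**Figure D4:**
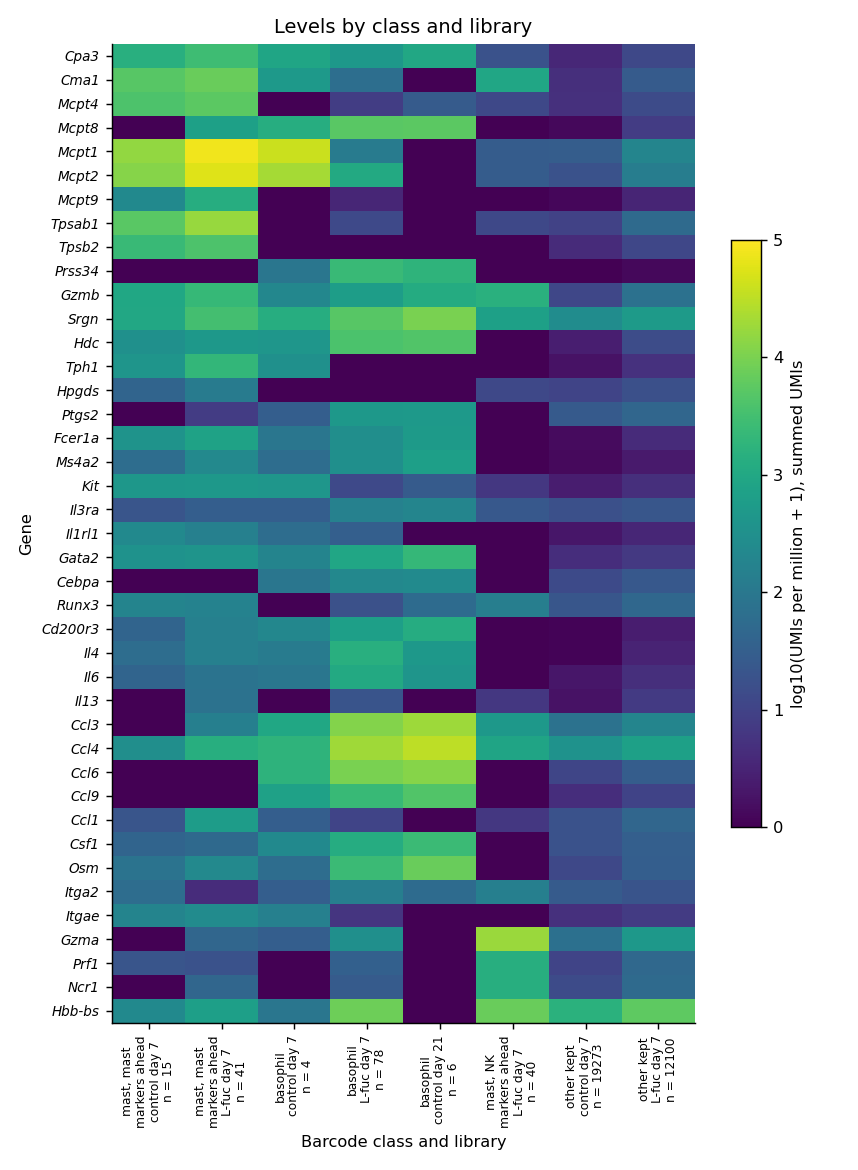
Level of the genes named at the left, as log10 of CPM plus 1 from summed UMIs (colour), in the classes and libraries named under each column and in all other kept barcodes of day 7. Mcpt1, Mcpt2 and the tryptases are brightest in the mast-marker barcodes and Ccl3, Ccl4 and Ccl6 in the basophils of L-fuc day 7 and control day 21, while the Mcpt1 and Mcpt2 of the 4 control day 7 basophils come from 1 barcode.

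The called basophils of L-fuc day 7 varied as well. Mcpt8 ranged from 1 over a median of 16 to 242 UMIs per barcode. Prss34 was found in 19 of the 78, and 1 barcode held 466 of its 1046 UMIs. The 19 were deeper, with a median of 6139 against 3442 UMIs, and had more Mcpt8, 8124 against 3522 CPM. Hdc was at 3451 CPM in the 19 and 4162 in the 59 others, while its medians per barcode were 45.6 and 44.3 UMIs per 10000. For Mcpt8 these medians were 87.0 and 37.6, so that the 19 were higher in Mcpt8 both ways and differed little in Hdc. Il4 was at 1051 and 1688 CPM, with 82 UMIs in its highest barcode, and its medians per barcode were in the other order, 4.42 and 2.71 UMIs per 10000. In the 6 basophils of control day 21, Ccl3 ranged from 33 to 201 UMIs, Osm from 3 to 69 and Il4 was found in 2 barcodes, while Prss34 was found in 1, with 65 UMIs. With 4 called basophils in control day 7, genes of L-fuc and control basophils were not compared.

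For the mast cells, L-fuc day 7 was set against control day 7, 1 library against 1 library. Over all called mast cells (87 against 21), 4.2% of 6596 genes were at least 2-fold higher and 5.46% lower (277 and 360 genes, or 370 and 248 with TMM scaling), but these groups held Gzma-led barcodes in unequal numbers, 40 of 87 and 4 of 21. The mast-marker barcodes (41 against 15, 295337 against 50363 UMIs) gave 3.32% higher and 4.14% lower of 4271 genes. With each barcode weighing the same the shares were 4.54% and 6.13%, and with barcodes up to 10000 UMIs they were 3.47% and 3.85% of 2106 genes. On summed UMIs the median log2 ratio was -0.35, and the values below are to be read against it. The barcodes differed in depth between the libraries, with medians of 2710 and 1116 UMIs, and 9 of the 41 but none of the 15 were above 10000 UMIs. These 9 held 76.3% of the Mcpt1 UMIs.

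Of 9 granule protease genes outside the rule, 6 were higher in L-fuc and 0 lower (median 1.64), and 4 were higher with each barcode weighing the same. Mcpt1 was at a median of 345 UMIs per 10000 per barcode in L-fuc (range 0 to 1626) and 74.9 in control (0 to 573), so that the ranges overlapped. Its log2 ratio was 2.38 on summed UMIs, 1.79 with each barcode weighing the same and 1.81 with barcodes up to 10000 UMIs. Mcpt2 gave 2.21, 1.41 and 1.65 in these 3 ways, and Mcpt9 gave 2.33, 2.82 and 1.74. Thus these 3 chymase genes stayed above 2-fold in all 3 ways. For Tpsab1 the ratio was 1.64 on summed UMIs, 0.78 with each barcode weighing the same and 2.14 up to 10000 UMIs, and Gzmb had 1.23, 0.62 and 2.06. Tpsb2 had medians of 28.9 and 25.7 UMIs per 10000, and its ratio was 0.72, 0.16 and 1.51. Tpsab1 and Gzmb were therefore under 2-fold only where each barcode weighed the same, and Tpsb2 was above 2-fold only with barcodes up to 10000 UMIs.

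The same protease genes were higher in the rest of that library. In all other kept barcodes (12100 against 19273), where 9.17% of 17910 genes were at least 2-fold higher and 1.42% lower, 7 of 9 granule protease genes were higher. The log2 ratios there were 2.68 for Mcpt1, 2.91 for Mcpt2, 2.61 for Tpsab1, 1.71 for Tpsb2 and 2.80 for Cma1, and Hbb-bs was at 1.88. These other barcodes include those left out by the C1q and Cd3 limits and those under 3 UMIs of the rule's genes. Some genes known from other cells were also higher within the mast-marker barcodes. Of 4 measured red cell genes 2 were higher and 0 lower (median 1.62), with Hbb-bs at 673.8 against 238.3 CPM (log2 ratio 1.39), although 100 of its 199 UMIs in L-fuc lay in 1 barcode. Of 10 measured basophil markers outside the rule, some of them shared with mast cells, 4 were higher and 0 lower (median 0.95), namely Cd200r3, Ms4a2, Ccl3 and Ifitm1. With barcodes up to 10000 UMIs 2 of 9 measured were higher and 0 lower (median 0.92). There Cd200r3 (20 against 2 UMIs, log2 ratio 1.76) and Ms4a2 (23 against 3, 1.54) stayed above 2-fold. They were not called because each had fewer than the required 30 UMIs. Ifitm1 fell short of 2-fold (0.92). The part of free RNA in the difference within mast-marker barcodes was not tested.

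Other genes of mast cell function differed less evenly. Tph1 was higher, with a ratio of 2.27 on summed UMIs, 1.22 by barcode and 2.93 up to 10000 UMIs, and 592 UMIs in 26 of 41 against 20 UMIs in 9 of 15 barcodes. Of 5 eicosanoid genes 3 were higher, among them Alox5 (1.91, and 1.59 by barcode). Of 17 genes of the IgE receptor and its signalling 3 were higher and 0 lower (median 0.43), or 1 of 8 measured up to 10000 UMIs, among the 3 Ms4a2 with 65 against 3 UMIs (1.49, and 2.51 by barcode). Kit (0.01), Gata2 (0.06), Hdc (0.44) and Fcer1a (0.93) did not reach 2-fold on summed UMIs, and Fcer1a was at 1.04 up to 10000 UMIs, with 84 against 19 UMIs. With each barcode weighing the same, 1 of 10 measured mast cell markers outside the rule was higher and 1 lower. On summed UMIs 2 of these 10 were higher and 0 lower. Srgn, for the proteoglycan that holds granule contents, and Cd63, a granule membrane gene, were higher on summed UMIs (1.62 and 1.22) and under 2-fold by barcode (0.69 and 0.53).

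Among 15 cytokine and chemokine genes 6 were higher and 2 lower, or 3 and 2 with each barcode weighing the same. Ccl4 had 402 against 15 UMIs (2.10, and 1.11 by barcode), with 253 UMIs in 1 barcode, and Ccl7 had 32 against 48 (-3.12, -2.81 by barcode and -1.62 up to 10000 UMIs). Of 9 interferon-stimulated genes 4 were higher and 1 lower (median 0.28). Ly6e was found in 29 of 41 against 5 of 15 barcodes, with 407 against 11 UMIs (2.54, and 2.50 by barcode), and Ifitm2 in 29 of 41 against 8 of 15 (2.25, and 1.85 by barcode). Both were thus also higher where each barcode weighed the same. In the other kept barcodes Ly6e was at 1.42 and Ifitm2 at 0.04.

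Immediate early genes went both ways on summed UMIs, 2 of 18 higher (Jun and Nfkbia) and 3 lower (Fos, Fosb and Egr1). With barcodes up to 10000 UMIs 5 were higher (Jun, Junb, Jund, Nfkbia and Zfp36) and 2 lower (Fos and Egr1), and with each barcode weighing the same 3 were higher and 0 lower. Fos had 177 against 88 UMIs (-1.55), 66 of the 88 in 1 control barcode, and its ratio by barcode was -0.79. Cma2, a chymase gene with the lowest ratio outside the lists (-5.51), had 8 against 69 UMIs, of which 52 lay in 1 control barcode. Sparc and Mgp, genes of matrix proteins made by other cells, were lower (-2.48 and -3.67), with 138 and 51 UMIs in the 15 control barcodes. The highest outside the lists included Hspb1 (71 against 0 UMIs, 36 of them in 1 barcode) and AY036118 (1912 against 37, 1467 of them in 1 barcode), whereas Fgl2 (63 against 0) was spread over 15 barcodes. Of the fucose metabolism genes 3 of 17 were measured and none was called on summed UMIs, while Fuca2, with 30 against 3 UMIs, was higher where each barcode weighed the same (1.24).

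**Figure D5:**
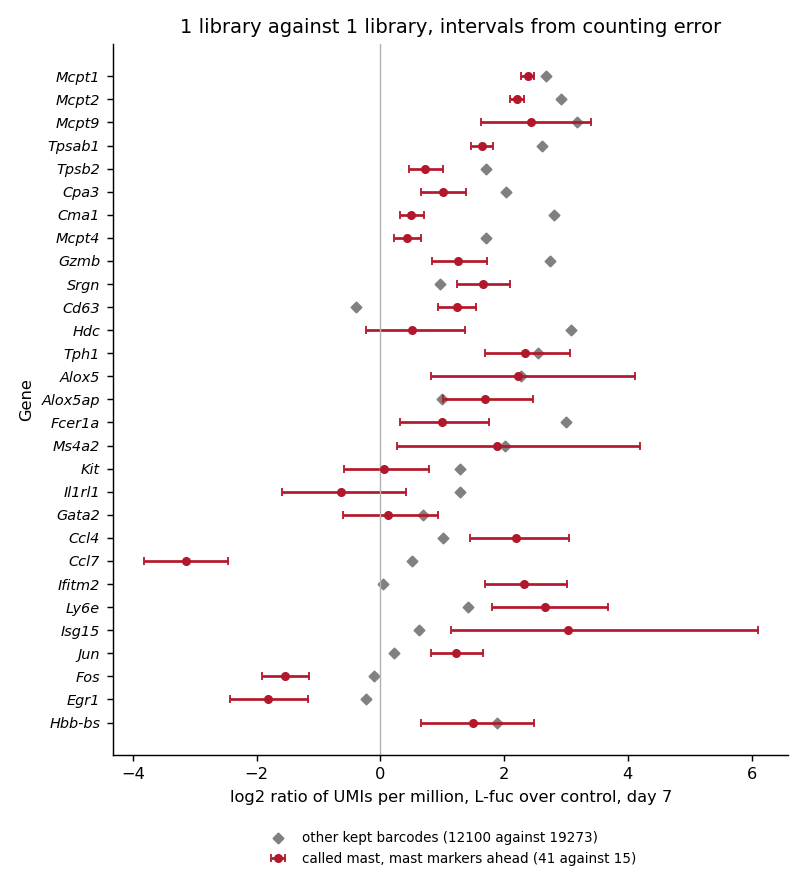
Log2 ratio of CPM, L-fuc day 7 over control day 7, without a pseudocount, for the genes named at the left in the mast-marker barcodes (red, with exact 95% intervals for counting error of summed UMIs) and in all other kept barcodes (grey diamonds). Mcpt1 and Mcpt2 lie above 2 in both, Kit and Gata2 lie near 0 in the mast-marker barcodes, and Fos, Egr1 and Ccl7 lie below 0.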

How the data were processed

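Cells of pooled SW1 tumors were analysed in 5 gene expression libraries and 5 T cell receptor libraries made from those pools. The authors deposited raw UMI counts for 32285 genes per barcode, aligned to mm10 with Cell Ranger, and contig tables with UMI counts for the receptors. The submitters' notes give Cell Ranger 3.0, whereas the matrix headers give 7.1.0. Depth per library stands in the results, and shares carry exact binomial (Clopper-Pearson) 95% intervals.

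UMIs were summed per class and library and compared as log2 ratios of CPM (counts per 1000000 UMIs) with a pseudocount of 1 UMI, for genes with at least 10 UMIs in the 2 sums together, and no test was made with 1 library per condition. The edgeR test planned for mast cells against basophils needed 3 libraries with at least 5 barcodes of each class, and 1 had them, so edgeR 4.0.16 served only for TMM scaling. Reference barcodes were T cells (at least 3 Cd3 UMIs), macrophages (at least 20 C1q UMIs) and NK barcodes (at least 20 NK marker UMIs). Doublets were left in, with Scrublet from scanpy 1.11.5 as an alternative at 0.08% per 1000 barcodes. The other steps used R 4.3.3, Python 3.11.15, scipy 1.17.1, numpy 2.4.6, matplotlib 3.10.9 and pandas 2.3.3, and the gene comparison was tested on simulated data.

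The members, the 30 gene lists and the alternatives were chosen with earlier results of these data known. All genes of the lists may be named, and outside them the 10 highest and 10 lowest ratios of each comparison among genes with at least 30 UMIs and a 2-fold difference. The lists hold 403 genes, 401 of which are in the matrices. Mx1 and Fuk were not used here. Alternatives were a threshold of 5 UMIs, class calls needing 3 times more UMIs, at least 500 genes, a mitochondrial maximum of 20%, a complexity of at least 0.8, barcodes with a Ptprc UMI, thinning to 1000 UMIs, pseudocounts of 5 UMIs, genes called from 10 UMIs and TMM. The division by NK markers, equal weight for barcodes and the depth limits of 10000 and 20000 UMIs were chosen after the data had been seen.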

Additional observations from a re-analysis of the deposited data

Results flagged for a closer look

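The share of called basophils differed between L-fuc and control in opposite directions at the 2 time points. At day 7 the share in L-fuc divided by that in control was 30.7, from 78 and 4 barcodes, and at day 21 it was 0.267, from 1 and 6 barcodes. Each point rests on 1 library per condition, and the difference between the time points was not tested. The interval at day 21, 0.00581 to 2.20, includes 1, and the interval at day 7 is 11.5 to 115.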

How the results depend on the processing

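The mast cell ratio at day 7 stayed between 4.30 and 9.91 and the basophil ratio between 20.2 and 40.4 under all alternatives but thinning to 1000 UMIs per barcode, which left out 200, 1324, 2721, 440 and 119 shallower barcodes. Thinned, the ratios were 19.1 (61 against 6 barcodes) and 132 (70 against 1), and the basophil ratio at day 21 was 0 (0 against 3), while 1 mast cell was called at day 21 in place of 0. Without the C1q and Cd3 limits the day 7 ratios were 9.44 and 37.8.

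Numbers of genes depended more on the settings. For all called mast cells against basophils, 449 genes were higher, and 773 with each barcode weighing the same. For all called mast cells, L-fuc against control, 277 genes were higher and 360 lower. These were 142 and 177 for mast-marker barcodes, 73 and 81 for those with at most 10000 UMIs, 553 and 1620 when called from 10 UMIs, 58 and 635 with a pseudocount of 5 UMIs, 58 and 30 when thinned, and 370 and 248 with TMM scaling, which turned the split towards higher genes. With a threshold of 5 UMIs 200 genes were lower. Counting each result under each alternative, some of them among those given above, 37 values under planned and 13 under added alternatives stayed within the counting intervals or within 1.5 times the number of genes. A further 11 values under planned and 5 under added alternatives moved beyond that.

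No paired analysis was possible because only 1 library held at least 5 barcodes of both classes, and the edgeR and DESeq2 fits, their size factors and low-count filter, the leave-one-out fits and the comparison of L-fuc with control basophils were not run. Counting error is the only error that these data give.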

Other observations

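Barcodes with Mcpt8 were also found among those outside the rule. Comparing L-fuc with control in all other kept barcodes of day 7, Prss34 had 22 against 0 UMIs, and the log2 ratio was 4.57 for Mcpt8, 3.08 for Hdc and 3.80 for Cd200r3, against a median of -0.07 over 17910 genes. In the same comparison all 5 NK markers were at least 2-fold higher (median 2.02), as were 5 of 6 neutrophil markers (median 1.35) and 5 of 5 red cell genes (median 1.81), among 9.17% of all genes.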
